A study of Mus musculus with 8 samples.

Results

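The small proline-rich genes Sprr1a, Sprr2a, Sprr2d and Sprr2g and the S100 genes S100a4, S100a6, S100a8, S100a9, S100a10 and S100a11 were followed in mouse bone marrow mesenchymal stem cells (MSCs) carrying an active RhoA. These 10 genes were represented by 11 of the 25697 probes on the array, and 8 of the 10 were among the 8360 genes bright enough to be tested. The genes were taken by name, and the set was chosen on the fold changes of Sprr2d, Sprr2g and S100a8, which were lower in L63RhoA on these same arrays, so the values of the members are given as a description without p-values. The cells were bought-in bone marrow MSCs at passage 6, kept in αMEM with 10% FCS and transfected by Lipofectamine LTX with empty vector (EV) or with Myc-L63RhoA, a constitutively active form of the small GTPase RhoA. Each group had 4 Illumina MouseRef-8 arrays. The sample labels give 48 h between transfection and harvest and the methods give 3 days, and neither the share of cells that took up the plasmid nor the strain or age of the donor mice is given in the sources used here. The series describes 4 independent experiments, but the labels do not tie an EV array to a L63RhoA array.

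Small proline-rich proteins are precursors of the cornified envelope, the layer of cross-linked protein beneath the membrane of terminally differentiated keratinocytes, and transglutaminases join them to each other and to loricrin. Their genes are also induced in other cell types under stress and inflammation. S100 proteins are small calcium-binding proteins with a pair of EF-hand motifs, which mostly act as dimers by binding target proteins. S100a8 and S100a9 together form calprotectin, an abundant protein of neutrophils, whereas S100a4, S100a6, S100a10 and S100a11 are widely expressed in mesenchymal cells and bind cytoskeletal proteins and annexins. The member genes of both families lie together in the epidermal differentiation complex on mouse chromosome 3.

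Sequence around the start of transcription was read for the members the results turn on, and for Sprr2e, the nearest family gene that was tested and is not a member. RefSeq promoter entries (build GRCm38.p6, 250 bases before to 50 after the start) were matched for 8 of the 10 members. The windows of Sprr2d and Sprr2e are shown because every L63RhoA array lay below every EV array for both genes and their starts resemble each other, that of S100a8 because it was the S100 gene with the lowest fold change, and that of S100a11 because it holds the AP-1 letters more than once. Capitals mark TATAAA on the strand shown and TGANTCA, the binding letters of AP-1, on either strand. All 4 windows lie on the plus strand, at chr3:92338890-92339189 for Sprr2d, chr3:92351893-92352192 for Sprr2e, chr3:90668821-90669120 for S100a8 and chr3:93520246-93520545 for S100a11.
Sprr2d: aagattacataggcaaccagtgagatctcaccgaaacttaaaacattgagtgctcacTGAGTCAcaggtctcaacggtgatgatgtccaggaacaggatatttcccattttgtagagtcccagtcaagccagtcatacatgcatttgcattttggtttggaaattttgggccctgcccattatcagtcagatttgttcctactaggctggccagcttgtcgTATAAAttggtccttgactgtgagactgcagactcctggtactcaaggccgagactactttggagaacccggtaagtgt
Sprr2e: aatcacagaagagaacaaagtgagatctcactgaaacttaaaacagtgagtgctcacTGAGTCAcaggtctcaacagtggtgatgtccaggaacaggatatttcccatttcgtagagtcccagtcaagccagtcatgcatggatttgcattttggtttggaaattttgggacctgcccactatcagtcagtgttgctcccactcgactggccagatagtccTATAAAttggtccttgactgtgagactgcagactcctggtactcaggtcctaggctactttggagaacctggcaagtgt
S100a8: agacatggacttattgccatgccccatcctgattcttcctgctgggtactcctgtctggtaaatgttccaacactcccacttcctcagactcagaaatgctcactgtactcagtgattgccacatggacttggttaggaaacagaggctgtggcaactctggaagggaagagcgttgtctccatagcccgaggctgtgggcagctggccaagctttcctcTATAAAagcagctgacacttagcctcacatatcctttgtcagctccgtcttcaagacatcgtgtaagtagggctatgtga
S100a11: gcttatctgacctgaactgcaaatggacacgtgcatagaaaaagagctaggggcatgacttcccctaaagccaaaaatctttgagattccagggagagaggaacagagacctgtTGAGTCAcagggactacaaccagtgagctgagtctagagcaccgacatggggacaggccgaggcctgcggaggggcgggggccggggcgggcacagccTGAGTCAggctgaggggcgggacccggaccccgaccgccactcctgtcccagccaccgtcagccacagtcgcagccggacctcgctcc
The windows of Sprr2d and Sprr2e were identical at 88.0% of their positions, and in both TGAGTCA began 193 bases and TATAAA 29 bases before the start. In S100a8 TATAAA began 30 bases before the start and there was no match to TGANTCA, and in S100a11 TGAGTCA began 136 and 38 bases before the start and there was no TATAAA. The TATA letters were found in 5 of the 8 members with a window (Sprr1a, Sprr2d, S100a4, S100a8 and S100a9), against 8.28% of 32544 mouse promoters of the same length. They began 31 bases before the start in S100a4 and 43 in Sprr1a, but in S100a9 at the annotated start itself. TGANTCA was found in 3 (Sprr1a, Sprr2d and S100a11), against 7.79%. The ETS letters CCGGAAG (8.91% of promoters), the interferon response element (3.45%) and the CArG box of serum response factor (1.64%), each searched on both strands, were found in none of the 8. No marked match overlapped another. A match is a description of the letters, and binding was not measured.

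The arrays had a mean signal of 274 to 377 in EV and 320.1 to 350 in L63RhoA, and 11925 to 12981 probes per array had a detection p-value under 0.05. Rhoa had a single probe, at a signal of 84.8 to 101 and detected on 0 of 8 arrays, so that it gives no check of the transfection. The largest component of the differences between arrays of the same group held 48.2% of the variance within groups. EV replicates 2 and 4 (scores 10.8 and 11.7) and L63RhoA replicate 1 (17.4) lay on one side of it, and EV replicate 3 (-17.6) lay farthest on the other. Of the MSC markers, Pdgfra, Pdgfrb, Vcam1, Nt5e, Cd44, Nes, Eng and Itgb1 were measured, while Lepr and Thy1 were not detected on any array.

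Among the small proline-rich genes, Sprr2d and Sprr2g were lower on every L63RhoA array than on any EV array, and Sprr2a differed by less than the spread between its arrays. Among the S100 genes, S100a8 and, by a small margin, S100a11 were lower without overlap, and S100a4, S100a6 and S100a10 overlapped between groups. The log2 fold change of L63RhoA over EV was negative for all 8 tested members, with a median of -0.35, where the median over all genes tested was 0.01. At an adjusted p under 0.05 (limma, Benjamini-Hochberg over 8360 genes), 3 members were called, all lower in L63RhoA, where 0.706% of all genes tested were called and 0.323% were called lower. The groups did not overlap in 4 members, again all lower, and this was so for 9.93% of all genes, 4.72% in the lower direction. Because these genes were chosen with this contrast known, nothing is read from either count. The members called numbered 4 without EV replicate 3 (Sprr2a added), 4 without L63RhoA replicate 1 (S100a11 added), and 2 without L63RhoA replicate 3 or 4 (S100a8 lost). Over all genes, 936 of 8225 were called without EV replicate 3 and 1289 of 8192 without L63RhoA replicate 1. Without L63RhoA replicate 3 or 4 these were 17 of 8263 and 19 of 8252.

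Sprr2d, a small proline-rich protein of the cornified envelope, had log2 normalised intensities of 8.87, 8.88, 9.03 and 8.79 on EV arrays 1 to 4 and of 7.37, 7.70, 7.72 and 7.65 on L63RhoA arrays 1 to 4. The groups were separated by more than their whole ranges, and EV replicate 3 was the highest and L63RhoA replicate 1 the lowest. Its mean was 8.89 ± 0.10 (SD, n = 4) in EV and 7.61 ± 0.16 (SD, n = 4) in L63RhoA, a log2 fold change of -1.28 (SE 0.10, 95% interval -1.51 to -1.05), and so 2.43-fold lower in L63RhoA. This was the lowest log2 fold change of all 8360 genes tested. The signal as deposited, before the background correction made here, was 571, 420, 708 and 431 in EV and 260, 303, 306 and 266 in L63RhoA.

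Sprr2g is annotated in RefSeq as a transcribed pseudogene, so that its transcript is listed without a protein. Its log2 intensity was 6.58, 6.79, 6.59 and 6.39 in EV and 5.69, 5.77, 5.61 and 5.45 in L63RhoA. Every L63RhoA array lay below every EV array, with a gap of 0.62 between the nearest arrays. The means were 6.59 ± 0.16 and 5.63 ± 0.13 (SD, n = 4 each), a log2 fold change of -0.96 (SE 0.11) or 1.95-fold lower. Its deposited signal was close to the background, between 149 and 189 on EV arrays and between 118 and 137 on L63RhoA arrays, although detected on all 8. The log2 fold change was -0.45 in the authors' processed values, and also -0.45 when no further background was removed from the deposited signals. These settings are nearly the same processing, since their sorted log2 values differed by at most 0.0166 on each array.

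Sprr2a is listed under its present symbol Sprr2a1 and had a bright and a dim probe. The bright probe gave 7.87, 8.27, 7.48 and 8.33 in EV and 7.91, 7.57, 7.58 and 7.54 in L63RhoA. The EV arrays spanned the whole range of both groups, with replicates 2 and 4 high and replicate 3 lowest of all 8 arrays. The log2 fold change was -0.34 (SE 0.18, 95% interval -0.73 to 0.05). The dim probe was detected on 1 array, EV replicate 4, at signals of 89.7 to 102 across the arrays. Sprr1a, which encodes a small proline-rich protein also known from injured neurons and stressed heart muscle, was not detected on any array (signal 89.8 to 103, detection p-value 0.063 to 0.432).

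**Figure D1:**
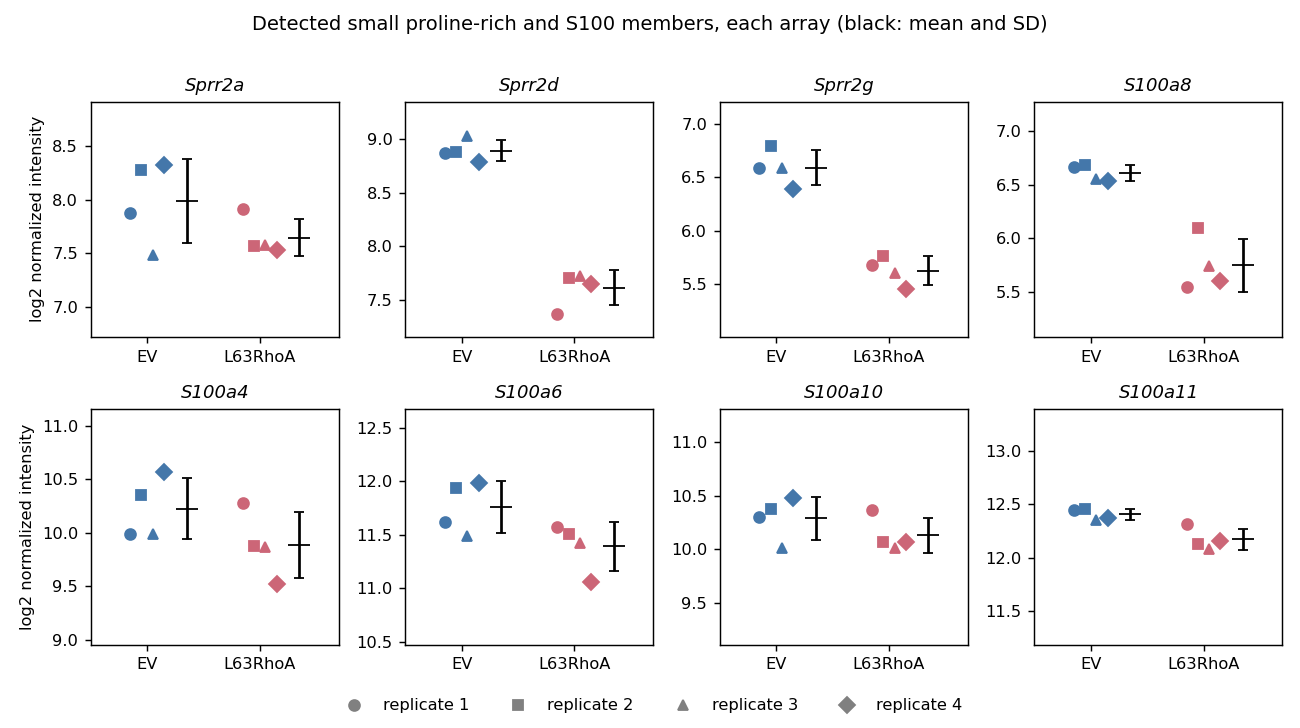
Log2 normalised intensity (y axis) of the 8 detected members on each EV and L63RhoA array, with marker shape giving the replicate number and black bars the mean and SD of 4 arrays. Sprr2d, Sprr2g, S100a8 and S100a11 do not overlap between groups, with S100a11 separated by 0.04 only. Each panel spans the same number of log2 units.

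Sprr2e, the neighbour of Sprr2d and not a member, had 9.47, 9.31, 9.58 and 9.14 in EV and 8.71, 8.93, 8.96 and 8.94 in L63RhoA. The groups did not overlap, and as in Sprr2d the highest array was EV replicate 3 and the lowest L63RhoA replicate 1. The log2 fold change was -0.49 (SE 0.11), which missed the threshold over all genes (adjusted p = 0.079, limma). It passed without EV replicate 3 (adjusted p = 0.043, limma) and without L63RhoA replicate 1 (adjusted p = 0.035, limma). In those fits 936 of 8225 and 1289 of 8192 genes were called. The adjusted p of Sprr2e lay between 0.017 and 0.28 over the 19 settings tried. The Sprr2 genes are close copies of each other, and the sharing of signal between them was not tested because the sequences of the probes were not used here. Of the 10 small proline-rich genes outside the members, 9 had a probe and Sprr2e alone was tested. Sprr1b was detected on L63RhoA replicates 2 and 3 only and Sprr2j-ps on 1 array, and Sprr2b, Sprr2f, Sprr2i, Sprr2k, Sprr3 and Sprr4 on none.

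Other components of the cornified envelope and epidermal barrier were mostly dark. Of 33 such genes 26 had a probe and 3 were tested, and none of the 3 passed. The log2 fold change was 0.31 for the late envelope gene Lce1c, whose EV mean of 4.47 was close to the background (adjusted p = 0.14, limma). It was -0.12 for Klk7, a protease that sheds cells from the stratum corneum (adjusted p = 0.60, limma), and -0.01 for Cdsn, the adhesion protein corneodesmosin (adjusted p = 0.97, limma). Among keratinocyte markers, Krt5, Krt14, Krt1, Trp63 and Dsg3 were not detected on any array, and 3 to 4 of 11 probes were detected on each array. The tested markers were Krt10, detected on all 8 arrays, with a log2 fold change of -0.21 (adjusted p = 0.17, limma) and groups that did not overlap, Krt16 with 0.33 (adjusted p = 0.16), Cdh1 with 0.18 (adjusted p = 0.52) and Krt17 with -0.02 (adjusted p = 0.94). The signals of the keratinocyte probes summed to between 1322 and 1622 on EV arrays and to between 1473 and 1540 on L63RhoA arrays. In these bulk samples, fewer cells of a type and less RNA per cell cannot be told apart.

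S100a8, the calprotectin subunit that dimerises with S100a9, had log2 intensities of 6.67, 6.69, 6.55 and 6.53 in EV and 5.55, 6.09, 5.74 and 5.61 in L63RhoA. The EV arrays lay close together, and L63RhoA replicate 2 stood above the other L63RhoA arrays but below every EV array. The means were 6.61 ± 0.08 and 5.75 ± 0.25 (SD, n = 4 each), a log2 fold change of -0.86 (SE 0.12, 95% interval -1.13 to -0.59) or 1.82-fold lower. Its deposited signal was 180, 153, 187 and 156 in EV and 129, 152, 136 and 123 in L63RhoA. Before normalisation the highest L63RhoA signal thus lay just under the lowest EV signal. The log2 fold change was -0.41 in the authors' processed values. Its partner S100a9 was not detected on any array (signal 80.5 to 92.4, detection p-value 0.604 to 1), so that the pair could not be followed as calprotectin.

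Markers of neutrophils, the cells best known for S100a8, were given beside it. Of 17 probes 2 to 4 were detected in EV and 2 to 3 in L63RhoA, and Mpo, Cxcr2, Csf3r and Ngp were not detected on any array. Their signals summed to between 10491 and 13829 on EV arrays and to between 10802 and 12014 on L63RhoA arrays, and most of it came from Lcn2, the siderophore-binding protein lipocalin 2, which is also made by stromal cells. For Lcn2 the log2 fold change was -0.17 (adjusted p = 0.23, limma) with groups that did not overlap, and the antimicrobial peptide gene Camp gave -0.24 (adjusted p = 0.22). The third neutrophil marker tested, the protease gene Elane, was detected on 4 arrays and gave 0.09 (adjusted p = 0.72, limma). Of the monocyte and macrophage markers, Ptprc, Itgam, Adgre1, Lyz2 and Tyrobp were not detected on any array, and the signals of 14 probes summed to between 1574 and 1894 on EV arrays and to between 1761 and 1908 on L63RhoA arrays. Those tested were Cd14, Cd74 and Fcer1g, each detected on all 8 arrays, with log2 fold changes of 0.07, -0.05 and -0.11 (adjusted p of 0.60, 0.79 and 0.55, limma). Endothelial markers summed to 617 to 669 in EV and 661 to 710 in L63RhoA over 7 probes. Tek and Kdr, detected on 4 and 5 of 8 arrays, gave log2 fold changes of 0.47 and 0.28 (adjusted p of 0.087 and 0.22, limma). No gene of the marker lists passed the test.

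S100a4, S100a6, S100a10 and S100a11 were detected on all 8 arrays. S100a4, which binds non-muscle myosin and is known from motile mesenchymal cells, had 9.99, 10.35, 9.99 and 10.57 in EV and 10.28, 9.87, 9.87 and 9.52 in L63RhoA. L63RhoA replicate 1 lay within the EV range and L63RhoA replicate 4 was the lowest, and the log2 fold change was -0.34 (SE 0.17, 95% interval -0.73 to 0.04). It was -0.47 without L63RhoA replicate 1 and -0.22 without L63RhoA replicate 4.

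S100a6, or calcyclin, binds annexins and the calcyclin-binding protein. It had 11.61, 11.94, 11.49 and 11.98 in EV and 11.57, 11.51, 11.42 and 11.05 in L63RhoA, a log2 fold change of -0.37 (SE 0.15, 95% interval -0.69 to -0.04). Of the EV arrays, only replicate 3 lay within the range of L63RhoA. S100a10, which with annexin A2 forms a complex at the plasma membrane, had 10.30, 10.37, 10.01 and 10.48 in EV and 10.37, 10.07, 10.01 and 10.06 in L63RhoA. Its groups overlapped, with a log2 fold change of -0.16 (SE 0.12, 95% interval -0.43 to 0.11).

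S100a11, or calgizzarin, binds annexin A1. It had 12.45, 12.45, 12.35 and 12.38 in EV and 12.31, 12.13, 12.08 and 12.16 in L63RhoA. The lowest EV array lay 0.04 above the highest L63RhoA array, and the log2 fold change was -0.24 (SE 0.09, 95% interval -0.43 to -0.05), or 1.18-fold lower. Background correction made little difference at this signal, and the authors' processed values gave -0.23.

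The rest of the S100 family is given beside the members. These are the genes left after the members were chosen with this contrast known, so they are not an independent comparison. Of 11 other S100 genes 9 had a probe and 6 were tested, and none passed (limma; 1 of the 6, S100a13, had an unadjusted p under 0.05, as did 24.4% of all genes tested). S100a13, which takes part in the release of fibroblast growth factor without a signal peptide, gave -0.32 on the log2 scale (SE 0.11, adjusted p = 0.14). It passed without L63RhoA replicate 1 (adjusted p = 0.046, limma), where 1289 of 8192 genes were called. The adjusted p of S100a13 ranged from 0.028 to 0.55 over the 19 settings. S100a3 had -0.23 (adjusted p = 0.23), S100a14, detected on 4 arrays, 0.29 (adjusted p = 0.46), S100a16 0.06 (adjusted p = 0.81), S100a7a -0.03 (adjusted p = 0.87) and S100a1 -0.02 (adjusted p = 0.94). S100a5, S100b and S100g were not detected on any array. The median over the 6 was -0.02.

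**Figure D2:**
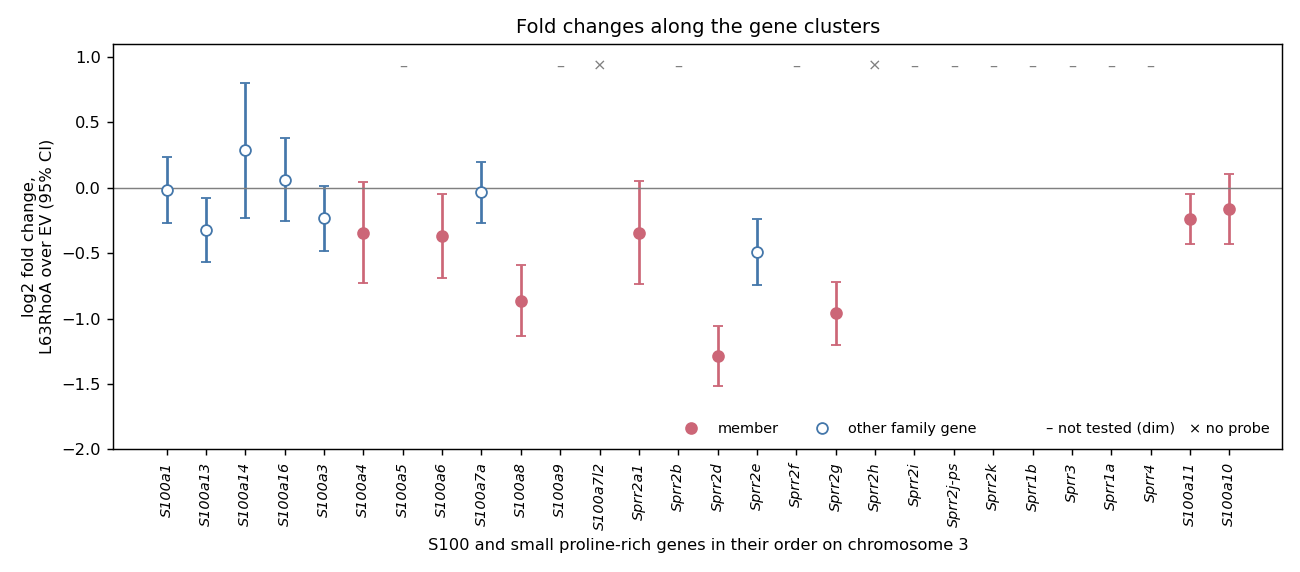
Log2 fold change of L63RhoA over EV with its 95% interval (y axis) for the S100 and small proline-rich genes in their order on chromosome 3 (x axis), with members in filled symbols, other family genes in open symbols, and genes too dim to test or without a probe marked above. Sprr2d is lowest at -1.28, next to Sprr2e at -0.49, and the genes at the ends of the order, S100a1 and S100a10, are at -0.02 and -0.16.

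In the order of the genes along the chromosome, the members with the lowest fold changes were not all side by side. Sprr2d, Sprr2e, Sprr2f and Sprr2g follow one another and the measured genes among them were lower, whereas S100a8 lies between S100a7a, whose levels differed by -0.03 on the log2 scale, and the undetected S100a9. Between the first and the last member RefSeq places 83 other genes, of which 36 had a probe and 3 were tested. None of the 3 passed. They were Sprr2e, Lce1c and S100a7a, with log2 fold changes of -0.49, 0.31 and -0.03.

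Binding partners and receptors of S100 proteins were taken from a list. Of its 11 genes 9 were tested and none passed (limma), and before adjustment 1 was higher and 2 were lower at p under 0.05, where 13.7% of all genes tested were higher and 10.7% lower. Anxa6, an annexin bound by S100a6, gave -0.36 on the log2 scale (SE 0.12, adjusted p = 0.12) and Anxa11 -0.48 (SE 0.18, adjusted p = 0.16). Myh9, the heavy chain of non-muscle myosin IIA and a target of S100a4, had 0.18 (SE 0.08, adjusted p = 0.19) without overlap of the groups, and Anxa2, the partner of S100a10, 0.18 (SE 0.09, adjusted p = 0.25). Both Anxa6 and Anxa11 passed without EV replicate 3 (adjusted p of 0.046 and 0.041, limma) and without L63RhoA replicate 1 (adjusted p of 0.042 and 0.033). Over all genes, 936 of 8225 and 1289 of 8192 were called in those fits.

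Factors known to act on the Sprr and S100a8 promoters were measured for 12 of 16 genes, and none passed (limma), and before adjustment 4 were higher and 1 was lower at p under 0.05, against the same 13.7% and 10.7%. Elf3, an epithelial ETS factor known to activate small proline-rich genes in human keratinocytes, gave 0.47 on the log2 scale (SE 0.10, adjusted p = 0.071, limma). It went from 4.36 ± 0.11 in EV to 4.83 ± 0.15 in L63RhoA (SD, n = 4 each), and its groups did not overlap. The EV mean of Elf3 was near that of the undetected Rhoa probe (4.28), so this difference lies close to the background. Ets2 had 0.36 (adjusted p = 0.11), and the AP-1 subunits Fos and Jun had 0.38 (adjusted p = 0.16) and 0.51 (adjusted p = 0.17). Junb, another AP-1 subunit, had -0.59 (SE 0.24, adjusted p = 0.18) and Klf4, a factor of epidermal barrier formation, -0.56 (SE 0.28, adjusted p = 0.23). The remaining tested factors differed less. Fosl1, Jund, Ets1, Cebpb, Stat3 and Atf3 had 0.23, 0.17, 0.09, -0.03, -0.01 and -0.004 (adjusted p of 0.24 to 0.99, limma). With array weights and all 8 arrays kept, Elf3, Ets2, Jun, Junb and Klf4 passed (adjusted p of 0.011, 0.013, 0.016, 0.021 and 0.020, limma). That fit called 2098 of 8360 genes. Without EV replicate 3, Elf3 (adjusted p = 0.033, limma), Ets2 (0.031) and Junb (0.031) passed, among 936 of 8225 genes called. Without L63RhoA replicate 1, Ets2 (adjusted p = 0.034, limma), Jun (0.016) and Klf4 (0.034) passed, among 1289 of 8192 genes called. None of these factors passed when any other single array was left out.

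Within the groups the members followed a few patterns. In Sprr2a, S100a4, S100a6 and S100a10, EV replicates 2 and 4 were the highest EV arrays and L63RhoA replicate 1 was the highest L63RhoA array. In Sprr2d and Sprr2e the order was turned, with EV replicate 3 the highest in EV and L63RhoA replicate 1 the lowest in L63RhoA. S100a8 and Sprr2g followed neither, since EV replicate 2 and L63RhoA replicate 2 were the highest of their groups in both. EV replicates 2, 3 and 4 and L63RhoA replicate 1 are also the arrays that lay farthest out on the component described above, and its part in these differences was not tested. EV replicates 2 and 4 had the lowest mean signals. Without both, an alternative chosen after seeing the data, the log2 fold changes of Sprr2a, S100a4, S100a6 and S100a10 were -0.03, -0.11, -0.16 and -0.03. Smaller differences follow from leaving out the highest EV arrays of these genes, so nothing is read from them. Those of Sprr2d, Sprr2g, S100a8 and S100a11 were then -1.36, -0.97, -0.88 and -0.23, and 2 members were called (S100a8 lost), among 7 of 8081 genes. With EV replicate 3 alone left out, Sprr2a, S100a4, S100a6 and S100a10 had -0.51, -0.42, -0.46 and -0.26. With L63RhoA replicate 1 alone left out, they had -0.43, -0.47, -0.43 and -0.24.

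**Figure D3:**
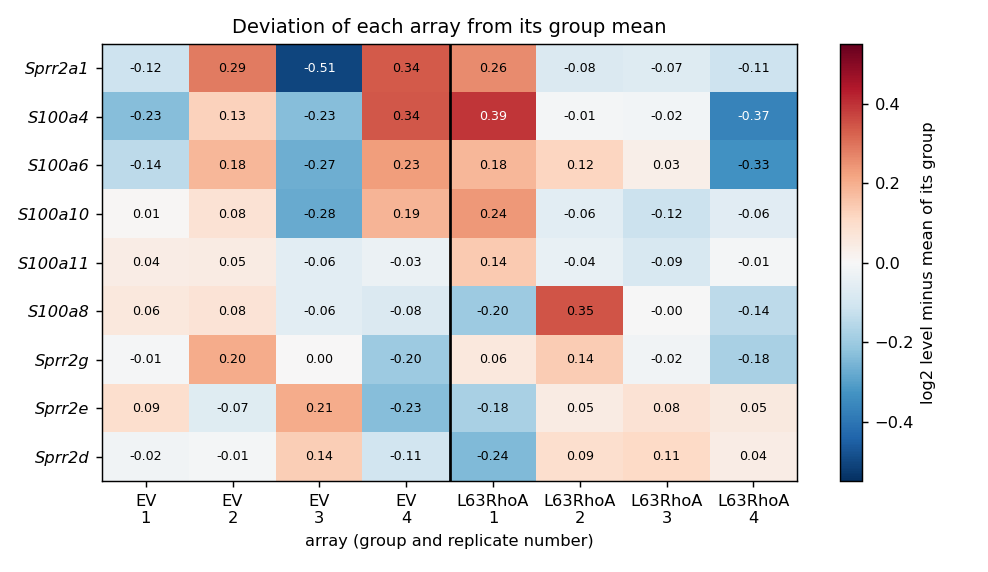
Log2 level of each array minus the mean of its group (colour and printed value) for the 8 detected members and Sprr2e (rows) on the 4 EV and 4 L63RhoA arrays (columns). L63RhoA replicate 1 is above its group in Sprr2a1 (0.26), S100a4 (0.39) and S100a10 (0.24) and below it in Sprr2d (-0.24) and Sprr2e (-0.18).

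The log2 fold changes of the members were also computed under 19 other settings. These changed the normalisation, the background correction, the filter or the fit, or left out 1 array. All of them use the arrays on which the set was chosen, so they do not test the direction. Settings that changed only the filter or the fit, other than array weights, gave the reported log2 fold changes again. The authors' processed values and the setting without further background removal gave nearly the same values as each other. All 8 kept a negative log2 fold change in each of the 19. Sprr2d ranged from -1.33 to -1.01, Sprr2g from -1.03 to -0.45, S100a8 from -0.98 to -0.41, and S100a11 from -0.28 to -0.21. The ranges of Sprr2a, S100a4, S100a6 and S100a10 were -0.51 to -0.23, -0.47 to -0.22, -0.46 to -0.26 and -0.26 to -0.10. When no further background was removed, the log2 fold changes of Sprr2g, S100a8, Sprr2d and Sprr2a were -0.45, -0.41, -1.01 and -0.26.

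**Figure D4:**
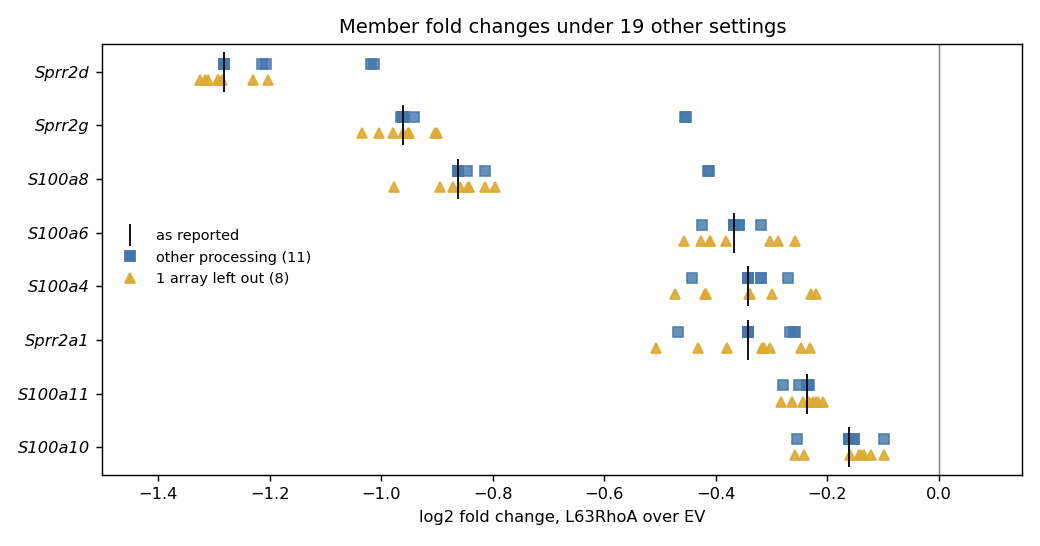
Log2 fold change of L63RhoA over EV (x axis) of the 8 tested members (rows), with the reported value as a black bar, 11 other ways of processing as squares and the 8 fits that left out 1 array as triangles. The values of Sprr2g and S100a8 reach -0.45 and -0.41 where no further background was removed, and no member crosses 0.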

How the data were processed

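RNA of MSCs transfected with EV or Myc-L63RhoA (4 samples each, grouped by the labels) was hybridised to Illumina MouseRef-8 arrays. According to the methods, the authors scanned with iScan, extracted signals with GenomeStudio (version not given in the sources used here), transformed and quantile normalised them in lumi and tested by permutation at a false discovery rate of 20%. The deposited signal intensities are linear and were not background-subtracted to 0. A deposited detection p-value accompanies each intensity. The authors' processed values are on the log2 scale and served as an alternative.

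Intensities were background corrected and quantile normalised with limma 3.58.1 in R 4.3.3 (neqc, offset 16). A probe entered if detected (p under 0.05) on 4 or more arrays. The brightest such probe stood for its gene, and L63RhoA was compared with EV by lmFit and eBayes (two-sided, Benjamini-Hochberg over 8360 genes, threshold 0.05). The fit was tried on simulated data whose noise was drawn independently for each gene and array. Those data lack the large component shared by genes within the groups, so they do not show how the fit behaves under it. A log2 fold change is the L63RhoA mean minus the EV mean. Values of the dimmest probes depend on the background correction, and the number of arrays limits the precision. Whether the 4 samples of a group were separate cultures is given only as independent experiments in the series text, so p-values reflect only how far these samples differ among themselves.

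The members and gene lists were chosen with earlier results of these data known. Named were all members and their probes, detected genes of both families, up to 4 genes of each other list with the smallest p, and the 3 genes most like Sprr2d, Sprr2g and S100a8. Genes outside this rule (Junb, Klf4, Fosl1, Jund, Ets1, Cebpb, Stat3, Atf3 and the marker genes) were named after their values were seen. Promoters came from RefSeq (GRCm38.p6).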

Additional observations from a re-analysis of the deposited data

Results flagged for a closer look

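In 3 of 30 groups of 4 arrays, 1 array stood apart from the others by Dixon's test, which chance alone does in about 1 in 20 groups. All 3 were L63RhoA replicate 1. It was high in Sprr2a1, at a log2 level of 7.91 with the nearest other array at 7.58 (gap over range 0.885), and high in S100a10, at 10.37 with the nearest at 10.07 (gap over range 0.830). It was low in Sprr2e, at 8.71 with the nearest at 8.93 (gap over range 0.872).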

How the results depend on the processing

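Genes called over the whole array numbered 59 and depended strongly on the fit. There were 116 in the processed values of the authors, 113 when no further background was removed, 139 under a variance trend and robust estimation, 2098 with array weights, 27 with the methods' t-test after Benjamini-Hochberg adjustment (the test of the general statistics section, whereas the arrays were tested there by permutation), and 17 to 1289 when 1 array was left out (936 without EV replicate 3, 1289 without L63RhoA replicate 1). Without both of the dimmest arrays, EV replicates 2 and 4, an alternative chosen after seeing the data, there were 7. The members called numbered 6 with array weights, 2 with the methods' t-test (S100a8 lost) and 2 to 4 when 1 array was left out. Of the other S100, small proline-rich and cornified envelope genes, 1 (Sprr2e) was called in the processed values of the authors, when no further background was removed and under a variance trend, 3 with array weights and 0 to 3 with 1 array left out. For the chromosome neighbours these numbers were 1, 1, 1, 2 and 0 to 2. Of the S100 partners and regulators, 7 were called with array weights and 0 to 5 with 1 array left out. The cause of these changes was not tested. Sprr2g and S100a8 were measured at signals of 118 to 189 and 123 to 187, close to the background.

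Whether same-numbered arrays come from the same experiment is not given by the labels. The deviations of same-numbered arrays correlated at -0.10, -0.22, 0.27 and -0.23, and 0 of 4 EV arrays and 1 of 4 L63RhoA arrays correlated best with their own number. With 4 arrays per group and deviations taken from the group means, these values cannot settle the pairing. With the replicate block 18 genes were called, and 3 members.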

Other observations

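The genes whose log2 levels followed those of the 3 lowest members most closely over the 8 arrays were listed as a description. For Sprr2d these were the histone gene H2bc11 (Pearson's r 0.97), the potassium channel gene Kcnh6 (0.96) and the chemokine gene Cxcl9 (0.96). For Sprr2g they were H2bc11 (0.98), Kcnh6 (0.97) and the matrix metalloproteinase gene Mmp3 (0.97), and for S100a8 Lrriq3 (0.97), H2bc11 (0.97) and the serpin gene Serpinb2 (0.96). These values include the difference between the groups. After the group means were removed, r was 0.18, 0.15 and 0.77 for the genes named with Sprr2d, 0.67, 0.53 and 0.44 for those named with Sprr2g, and 0.89, 0.69 and 0.71 for those named with S100a8, each in the order given.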
